A study of Mus musculus with 4 samples.

Results

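The 34 genes studied here, all of the response to low oxygen or of glycolysis, were followed through 5 stromal cell types of mouse long bone, in 4 single-cell RNA-seq libraries. They were taken as a named list, out of 27998 genes in the files, and fall into 4 oxygen sensors and factors (Hif1a, Epas1, Egln1, Egln3), 11 target genes (Vegfa, Adm, Ankrd37, Bnip3, Bnip3l, Ndrg1, Ddit4, P4ha1, P4ha2, Car9, Mxi1), 3 sugar and lactate transporters (Slc2a1, Slc2a3, Slc16a3) and 16 enzymes of glycolysis and pyruvate use. Each group had 1 library, all from C57BL/6 mice. A wild-type library named WT_A1 was paired with the NHD13Tg library, from mice with the Nup98-HoxD13 transgene, which models myelodysplastic syndrome (MDS). A wild-type library named Control was paired with the Abcg2-MDS/AML library, an Abcg2-based model of MDS and acute myeloid leukaemia. Every library held cells of crushed, collagenase-treated femora and tibiae, sorted as CD45-negative, TER119-negative, CD31-negative, CD140a-positive and CD51-positive. The labels used here give no age, no number of animals per library, no promoter of the transgene and no construction of the Abcg2 model.

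When oxygen is plentiful, prolyl hydroxylases such as those encoded by Egln1 and Egln3 mark the HIF-alpha proteins, products of Hif1a and Epas1 (HIF-2 alpha), for destruction. When oxygen falls, the HIF-alpha proteins persist, pair with ARNT and bind short DNA elements with the core ACGTG or GCGTG near genes for vessel growth, glucose uptake, glycolysis, mitophagy and collagen hydroxylation. HIF protein is controlled mostly after translation, so the RNA level of Hif1a or Epas1 is not a reading of HIF activity. Marrow is a tissue of low oxygen tension, and cartilage has no vessels and depends on glycolysis.

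The core ACGTG stood in a reference promoter of many members but not of all, and 4 promoters that hold it are printed because their genes return in the results. The RefSeq promoter table (build GRCm38.p6, 250 bases before to 50 bases after a start) matched 30 of the 34 members with 43 windows, and Epas1, Bnip3l, Ndrg1 and Slc2a3 had no entry. ACGTG on either strand was found in 26 of the 43 member windows (60.5%), in 23 members, against 6447 of all 32851 windows (19.6%). GCGTG on either strand was found in 23 of the 43 windows (53.5%), against 32.4% of all windows. Tpi1 and Gpi1 held neither, and Eno1, Pfkl, Pfkp, Pdk1 and Adm held GCGTG alone. A match describes letters in the reference, and neither share was tested. Capitals mark ACGTG or its reverse complement CACGT, and CACGTG holds an overlapping match on each strand. Shown 5′ to 3′ on the gene's strand are Ldha (lactate dehydrogenase A, which turns pyruvate to lactate) at chr7:46845554-46845853, plus strand, Bnip3 (a mitophagy receptor) at chr7:138909457-138909756, minus strand, Hk2 (hexokinase 2, the first step of glycolysis) at chr6:82774405-82774704, minus strand, and Ddit4 (REDD1, an inhibitor of mTORC1) at chr10:59951721-59952020, minus strand.
Ldha: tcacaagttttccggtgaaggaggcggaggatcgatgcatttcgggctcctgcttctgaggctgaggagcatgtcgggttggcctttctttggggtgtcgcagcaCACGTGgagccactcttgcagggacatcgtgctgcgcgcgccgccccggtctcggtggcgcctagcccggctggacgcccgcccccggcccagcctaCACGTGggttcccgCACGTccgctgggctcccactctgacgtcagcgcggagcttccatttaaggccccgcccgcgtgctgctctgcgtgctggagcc
Bnip3: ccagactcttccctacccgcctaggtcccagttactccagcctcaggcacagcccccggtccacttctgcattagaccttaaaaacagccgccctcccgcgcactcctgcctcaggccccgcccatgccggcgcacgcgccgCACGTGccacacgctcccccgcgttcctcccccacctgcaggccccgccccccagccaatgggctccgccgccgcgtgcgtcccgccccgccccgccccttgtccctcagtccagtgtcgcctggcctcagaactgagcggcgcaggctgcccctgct
Hk2: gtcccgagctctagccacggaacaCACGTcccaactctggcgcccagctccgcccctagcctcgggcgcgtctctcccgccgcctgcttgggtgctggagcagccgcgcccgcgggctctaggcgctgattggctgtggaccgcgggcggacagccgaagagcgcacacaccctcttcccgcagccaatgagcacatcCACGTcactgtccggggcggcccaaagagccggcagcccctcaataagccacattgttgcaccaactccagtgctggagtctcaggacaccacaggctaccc
Ddit4: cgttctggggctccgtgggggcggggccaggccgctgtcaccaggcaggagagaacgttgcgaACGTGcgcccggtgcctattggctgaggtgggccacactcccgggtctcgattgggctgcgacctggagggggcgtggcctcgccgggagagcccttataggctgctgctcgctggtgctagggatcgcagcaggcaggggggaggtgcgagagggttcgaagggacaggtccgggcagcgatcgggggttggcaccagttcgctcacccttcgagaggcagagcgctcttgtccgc
Ldha held 5 matches, Bnip3 and Hk2 held 2 each, and Ddit4 held 1. All 4 genes differed between a model library and its control in at least 1 cell type, as given further on, but Hk2 and Ldha did so in the opposite direction to Bnip3 and Ddit4 in the Abcg2-MDS/AML MSCs.

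Libraries held between 36133716 and 46033790 UMIs (molecules counted once each through a unique molecular identifier), and 4973 to 5766 barcodes per library were called cells. Of 21483 called cells, 10672 passed exactly 1 of the 5 marker gates and were used, 8889 passed none and 1922 passed several, 1652 of these the fibroblast and tendon gates. The gates gave 3005 cells called MSC here (Adipoq, Lepr and Esm1, marrow reticular stroma), 293 osteoblasts (Bglap, Bglap2), 1807 chondrocytes (Col9a1, Col9a2, Col9a3), 3166 fibroblasts (Dpt, Clec3b, Col14a1) and 2401 tendon cells (Thbs4, Myoc). UMIs were summed per type and library, and the 17 sums with at least 30 cells were used. Chondrocytes reached this only in Control and Abcg2-MDS/AML (971 and 826 cells), and osteoblasts in 3 libraries (92, 141 and 54 cells, against 6 in Abcg2-MDS/AML). Between 6 and 14 called barcodes were shared by any pair of libraries, and a median cell held between 3323 and 12594.5 UMIs.

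The gated cells were checked against further markers of their names, and in several sums another list stood as high or higher. Summed levels of 7 independent MSC markers were 30258 to 35551 counts per 1000000 (CPM) in the MSCs of 3 libraries, but 8409 CPM in the 154 MSCs of Abcg2-MDS/AML. Cxcl12, the defining chemokine of marrow stroma, stood at 1925 CPM there against 17135 to 19189 CPM in the other MSC sums. Lepr was at 1461 against 882 to 1427 CPM, but it is a gene of the gate, so its level is no independent check. The tendon list summed to 5571 to 14116 CPM in tendon cells but also to 10954 and 12684 CPM in chondrocytes, so it does not separate these types. Tendon cells of Abcg2-MDS/AML, at 5571 CPM, lay below the free RNA level of that list (7038 CPM). In fibroblasts of WT_A1 the osteoblast list (4993 CPM) exceeded the fibroblast list (4463 CPM). In fibroblasts of Control the tendon list (4651 CPM) and the osteoblast list (3874 CPM) exceeded the fibroblast list (3637 CPM), and in those of Abcg2-MDS/AML the MSC list did (4009 against 2876 CPM). Values over the libraries are given from here on in 1 order, which is WT_A1, NHD13Tg, then Control, then Abcg2-MDS/AML. The 7 blood markers summed to 2059, 831, 890 and 1.84 CPM in MSCs, with Ptprc and 5 other markers at 0 in the last. The 7 early genes that tissue digestion induces (Fos, Jun and others) summed to 17832 to 29111 CPM in MSCs and 5524 to 8133 CPM in osteoblasts. The part of these markers in the results was not tested. RNA free in the droplets was read from barcodes of 1 to 100 UMIs, and a member at or below that level in a type was not read as above background there. This held for 11 to 30 of the 34 members per sum.

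Epas1 had the largest MSC difference of the members, while Hif1a had its highest sum in chondrocytes. Epas1 (ENSMUSG00000024140) stood at 603, 635, 535 and 630 CPM in the MSCs. In the other 13 sums it lay between 8.7 and 37.1 CPM, at or below the free RNA level of 48.3 to 196 CPM in each. All 4 MSC sums were therefore above every other sum, the Abcg2-MDS/AML MSCs included, in which other MSC markers were low. In edgeR's quasi-likelihood test of each type against the mean of the other 4, with the library as a block, Epas1 was higher in MSCs by 4.87 on the log2 scale (SE 0.19, adjusted p = 2.49e-10, n = 17 sums). After every cell was thinned to 2000 UMIs, Epas1 was detected in 65.0%, 65.9%, 65.0% and 64.3% of MSCs (84.3%, 86.6%, 79.6% and 68.2% unthinned). The thinned share in the other types was 1.29% to 6.25%. By the same test Epas1 was lower in fibroblasts (−1.97, SE 0.24), osteoblasts (−1.29, SE 0.31) and chondrocytes (−1.05, SE 0.30), and the tendon difference of −0.55 (SE 0.22) did not pass (adjusted p = 0.0864). These 3 lower calls lie within levels at or below free RNA, and the chondrocyte call was lost without Abcg2-MDS/AML (−0.61, adjusted p = 0.234). With cells thinned to 2000 UMIs the osteoblast and chondrocyte calls were lost (adjusted p = 0.119 and 0.124).

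Hif1a was at 337 CPM in Control chondrocytes and 192 CPM in Abcg2-MDS/AML chondrocytes, above free RNA in both. In MSCs it was at 145, 244, 151 and 232 CPM. Osteoblasts held 70.1, 68.4 and 86.2 CPM in the 3 libraries they were summed in. Fibroblasts ranged from 80 to 173 CPM and tendon cells from 79.7 to 142 CPM, so the Abcg2-MDS/AML chondrocyte level lay inside the MSC range. All 3 osteoblast and all 4 tendon sums were at or below free RNA for Hif1a, as were 2 of 4 MSC and 2 of 4 fibroblast sums. Hif1a was higher in chondrocytes (1.5, SE 0.24, adjusted p = 0.000209 by edgeR) and lower in osteoblasts (−1.03, SE 0.24, adjusted p = 0.00349), the latter call being lost without NHD13Tg (−0.95, adjusted p = 0.0501). Its MSC difference of 0.24 (SE 0.19) did not pass the test (adjusted p = 0.313). Of the hydroxylase genes, Egln1 was at 57 to 95.4 CPM in tendon cells and at 55 to 65.5 CPM in MSCs, higher in the first (0.46, SE 0.11) and lower in the second (−0.36, SE 0.12), with both calls lost when WT_A1 or NHD13Tg was left out. Egln3 was at 10.8, 10.8, 14.9 and 1.64 CPM in tendon cells and at 0, 0.526 and 0 CPM in osteoblasts. Its fitted differences were 2.16 (SE 0.53) and −4.18 (SE 1.30), and the calls were lost without WT_A1 or NHD13Tg.

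**Figure D1:**
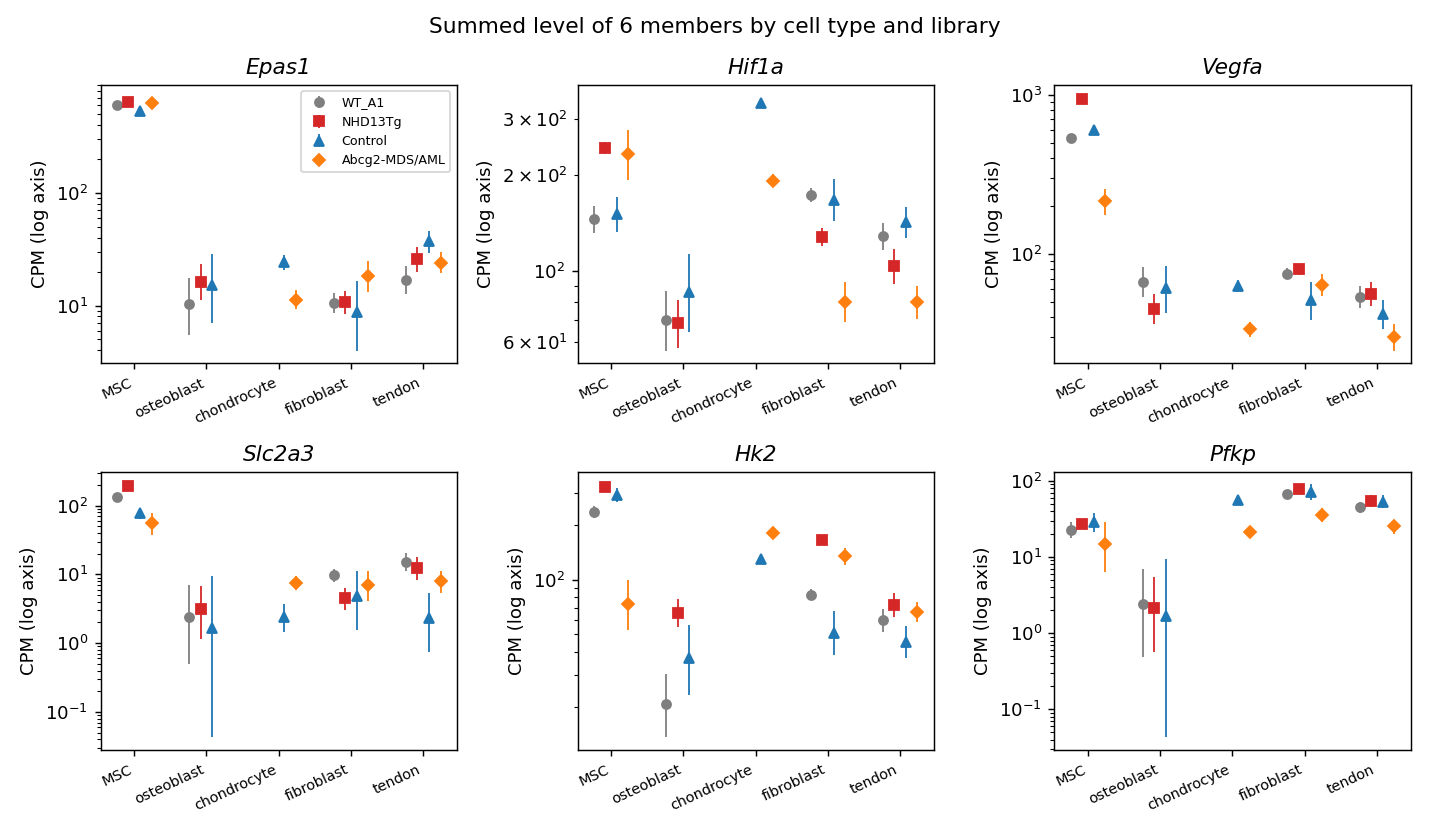
Summed level in CPM (log axis) of Epas1, Hif1a, Vegfa, Slc2a3, Hk2 and Pfkp by cell type, 1 point per library with its 95% Poisson interval, which covers counting error only. Epas1 at 535 to 635 CPM in the 4 MSC sums stands apart from 8.7 to 37.1 CPM elsewhere, and Hif1a peaks in Control chondrocytes at 337 CPM.

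Members did not move as 1 block in MSCs. Of 32 members that passed the low-count filter (Car9, a pH regulator, and Aldoc did not), 9 were higher in MSCs, 10 lower and 13 not called. Over all 11713 genes tested, 26% were higher and 21.4% lower in this contrast, so the members' shares are near the background. The median difference of the members was 0.02, against 0.01 for all genes. By role, targets had 5 higher and 2 lower of 10 tested, transporters 1 higher of 3, and enzymes 2 higher and 7 lower of 15, and no test compared the roles. When sums were scaled by their totals alone, the median of all genes shifted by 0.33 in this contrast and the split became 14 higher and 8 lower (63.6% higher of those called, against 47.4%).

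After Epas1, the members with the largest higher calls in MSCs were Slc2a3 and Vegfa. Vegfa, the vessel growth factor, was at 531, 938, 602 and 214 CPM in the MSCs. No other sum exceeded 79.8 CPM, so the MSC sums did not overlap with the rest (2.96, SE 0.20, adjusted p = 3.06e-08 by edgeR). Slc2a3, the high-affinity glucose transporter GLUT3, was at 133, 194, 77.5 and 55.3 CPM in the same order and at most 15.3 CPM in any other sum. Its difference was the second largest (4.09, SE 0.27, adjusted p = 2.76e-08). Mxi1, an antagonist of MYC, was at 93.2, 105, 97.6 and 136 CPM in MSCs and 10.2 to 73.4 CPM elsewhere (1.58, SE 0.16). Epas1, Vegfa, Mxi1 and Slc2a3 were the 4 members whose MSC sums all exceeded every other sum, which 9.75% of all genes tested did. Adm (adrenomedullin, a vasodilator peptide) was at 83.5, 160, 42.7 and 59 CPM in MSCs, but Abcg2-MDS/AML fibroblasts reached 144 CPM (2.21, SE 0.34). Hk2 was at 236, 324, 293 and 73.7 CPM in MSCs, with the Abcg2-MDS/AML sum inside the range of other types (1.22, SE 0.29), and its call was lost without Control (0.82, adjusted p = 0.0724). Ddit4 and Pfkl also passed, at 0.93 (SE 0.26) and 0.85 (SE 0.26), and each was lost without NHD13Tg, Pfkl also without WT_A1. Ankrd37 (a small ankyrin protein) passed at 1.05 (SE 0.23), but neither Ankrd37 nor Pfkl was above free RNA in every MSC sum, as the other 7 were.

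The 10 members lower in MSCs held 7 enzymes, both collagen prolyl 4-hydroxylase subunits and Egln1. Pkm, P4ha1, P4ha2, Eno1, Pgk1 and Pdk1 were at or below free RNA in all 4 MSC sums. Hk1, Pgam1 and Gapdh were so in 3 of the 4 and Egln1 in 1. Pkm, pyruvate kinase of most tissues, was at 90.5, 130, 101 and 136 CPM in MSCs. Every other sum was higher, the nearest being Abcg2-MDS/AML fibroblasts at 137 CPM (−1.48, SE 0.23, adjusted p = 0.000103 by edgeR). Pkm was the only member whose MSC sums were all below the rest, as 0.589% of genes tested were. P4ha2, a collagen prolyl 4-hydroxylase subunit, was at 27.2, 35, 23.8 and 25.8 CPM in MSCs and at 48.7 to 113 CPM in osteoblasts and chondrocytes (−1.65, SE 0.25). Eno1 (enolase 1) was at 55.3 to 77.8 CPM in MSCs against 187 and 237 CPM in chondrocytes (−1.19, SE 0.22). The remaining 7 were Pgk1 (−1.16), P4ha1 (−1.04), Hk1 (−0.998), Pdk1 (−0.97), Pgam1 (−0.77), Gapdh (−0.44) and Egln1 (−0.36). The Pgk1 call was lost with thinned cells (−0.58, adjusted p = 0.370). The Gapdh call was lost with scaling by totals (−0.08, adjusted p = 0.718), without WT_A1 (adjusted p = 0.183), without NHD13Tg (0.102), without the library block (0.274), with thinned cells (0.160), with doubled gates (0.0581) and with free RNA subtracted (0.0511). That of Egln1 was lost with scaling by totals (−0.01, adjusted p = 0.953), without Control (0.0766), without the block (0.172) and without the low-count filter (0.0574), beside the losses given above. Gapdh, Pgk1, Ldha, Pgam1, Eno1, Aldoa, Tpi1 and Pkm have near-identical copies or pseudogenes in the mouse genome, and how reads shared with them were counted is not given in the sources used here, so their levels are uncertain.

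**Figure D2:**
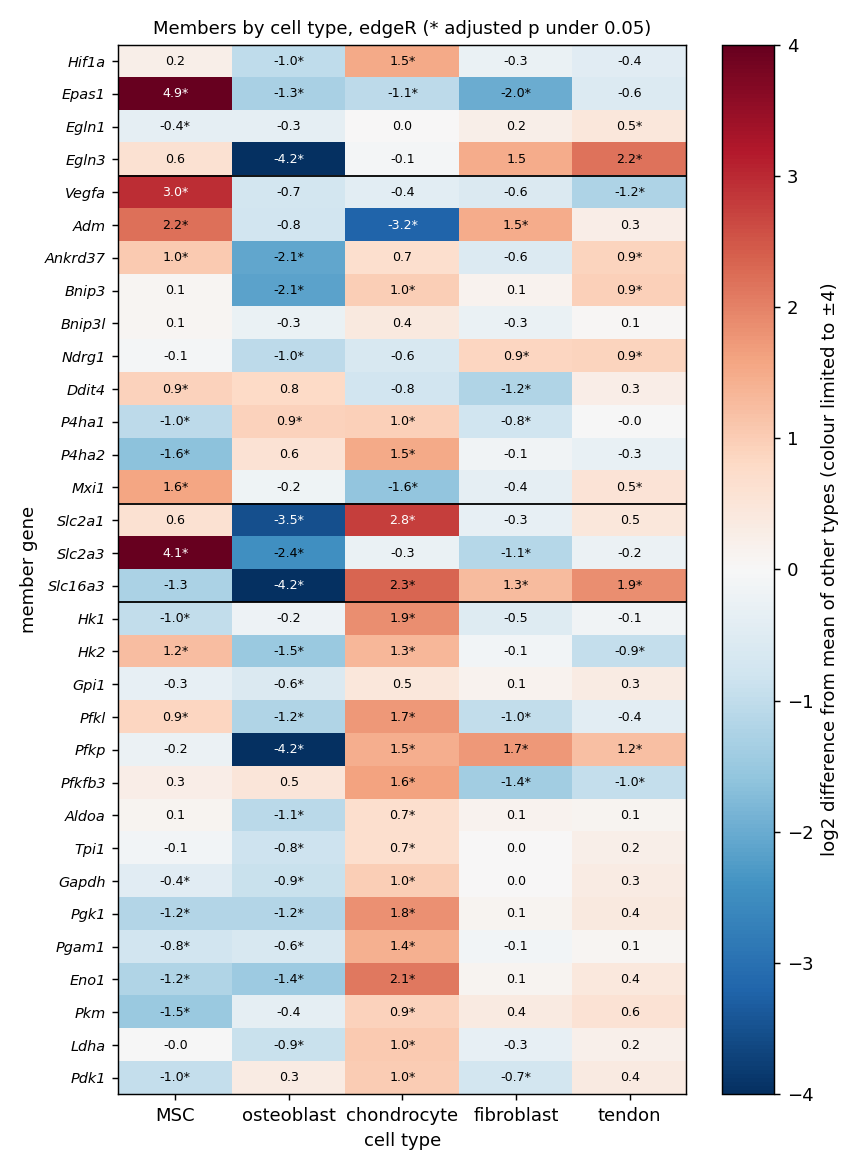
Fitted log2 difference of each of the 32 members tested in each cell type from the mean of the other 4 types (edgeR, columns are types, rows are genes by role, colour limited to ±4), with a star at adjusted p under 0.05. The chondrocyte column holds 20 higher calls and the osteoblast column 20 lower calls, while MSCs hold 9 higher and 10 lower.

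Against the mean of the other types, chondrocytes were called higher in nearly all member enzymes of glycolysis. Of the 32 members, 20 were higher and 3 lower in chondrocytes, where 20.4% and 15.8% of all genes were called, and the members' median was 0.97 against 0.02. Among enzymes 14 of 15 were higher and none lower, with Gpi1 (0.46, SE 0.18, adjusted p = 0.0528) the one not called. Mean CPM over libraries was highest in chondrocytes for some of these, such as Eno1 and Pgam1, but not for all. Mean Aldoa was at 217 CPM in chondrocytes, against 313 in MSCs, 298 in fibroblasts, 270 in tendon cells and 131 in osteoblasts. Gapdh (464 CPM), Pkm (255 CPM) and Tpi1 (174 CPM) were also below fibroblasts (487, 310 and 181 CPM) and tendon cells (525, 320 and 188 CPM). The chondrocyte means cover 2 libraries, those of osteoblasts 3 and those of the other types 4. They compare unlike sets of libraries, and the order within the shared libraries may differ. Slc2a1, the basal glucose transporter GLUT1, was at 64.3 CPM in Control chondrocytes and 67.3 CPM in Abcg2-MDS/AML chondrocytes. The highest other sum was 43.3 CPM, in Control MSCs, so the groups did not overlap (2.78, SE 0.29, adjusted p = 5.57e-06 by edgeR). Slc16a3, the lactate exporter MCT4, was at 16.2 and 5.97 CPM in chondrocytes, within the range of fibroblasts and tendon cells and below free RNA (2.33, SE 0.49). Eno1 was at 237 and 187 CPM (2.10, SE 0.25), with WT_A1 tendon cells at 211 CPM in between. Pfkfb3, which makes the activator of phosphofructokinase, was at 52.1 and 63.8 CPM, above all other sums, of which the highest was 42.4 CPM (1.60, SE 0.25). Slc2a1 and Pfkfb3 were the 2 members that separated upward, as 4.47% of genes did.

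Chondrocyte differences rest on 2 libraries and on the scaling between types. With scaling by totals, which shifted the median of all genes by −0.31, 16 members were higher and 4 lower, and Tpi1, Aldoa, Pkm and Bnip3 lost their calls. Without Abcg2-MDS/AML, 15 were higher, with Gapdh, Ldha, Aldoa, Tpi1 and Bnip3 lost, and without Control the calls of Pkm and Bnip3 were lost. Of the 20 higher members, 14 exceeded free RNA in both chondrocyte sums, and Gapdh, Aldoa, Pkm, Bnip3, Slc16a3 and Pfkp did not. Among the 3 lower members, Adm was at 2.28 and 3.47 CPM (−3.19, SE 0.62) and Mxi1 at 18.9 and 10.2 CPM (−1.58, SE 0.25). Adm and Mxi1 were below every other sum, which held for 7.09% of genes tested.

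Osteoblasts, which secrete bone matrix, were low in the member transporters and in most member enzymes but not in collagen prolyl hydroxylase. One member was higher and 20 were lower of 32, where 17.5% and 20.6% of all genes were called, and the median was −0.89 against −0.08. The higher member was P4ha1, at 306, 292 and 233 CPM in WT_A1, NHD13Tg and Control osteoblasts (0.93, SE 0.14, adjusted p = 9.7e-05 by edgeR). The highest other P4ha1 sum, Control chondrocytes at 236 CPM, overlapped with these. Pfkp, the platelet-type phosphofructokinase, was at 2.39, 2.11 and 1.69 CPM in osteoblasts and at least 14.7 CPM in every other sum (−4.15, SE 0.22, adjusted p = 3.98e-09). Slc16a3 was at 2.39, 0 and 0 CPM (−4.20, SE 0.79), and Egln3 was the third of the lowest members, as given above. With thinned cells the Slc16a3 difference was −1.55 and did not pass (adjusted p = 0.362). Thinning also ended the osteoblast calls of Egln3, Ankrd37, Slc2a3, Hk2, Gpi1 and Pfkl, beside that of Epas1 given above. In the 3 osteoblast sums 28, 30 and 30 of the 34 members were at or below free RNA. Fitted values of genes with sums at 0 depend on the prior count. Slc2a1 was at 1.59, 3.16 and 3.38 CPM, against 6.25 to 67.3 CPM elsewhere (−3.51, SE 0.45). The 5 members Bnip3, Bnip3l, Slc2a1, Gpi1 and Pfkp lay below every other sum in all osteoblast sums, as 10.3% of genes did, and none lay above, as 4.89% did. All 3 transporters and 11 of 15 enzymes were lower. The number of lower members was 9 without NHD13Tg and 13 without WT_A1. Gapdh, Hk2, Tpi1, Pfkl, Pgk1 and Egln3 lost their calls in both of these fits.

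Fibroblasts and tendon cells were called higher in Pfkp, as were chondrocytes, and each had 11 members called in all. In fibroblasts 4 members were higher and 7 lower, against 16.5% and 12.9% of all genes. In tendon cells 8 were higher and 3 lower, against 14.7% and 7.38%. For neither type did any member have all its sums above, or all below, every sum of the other types. Of all genes tested, 1.39% lay wholly above and 0.222% wholly below for fibroblasts, and 0.393% and 0.0939% for tendon cells. Pfkp was at 67.4, 77.8, 71.5 and 35.8 CPM in fibroblasts (1.72, SE 0.10, adjusted p = 3.03e-08 by edgeR) and at 45.1, 54.2, 53.4 and 25.1 CPM in tendon cells (1.21, SE 0.11). Chondrocytes held Pfkp at 55.7 and 21.1 CPM (1.46, SE 0.14), the first of these above every tendon sum. Ndrg1, a stress-induced differentiation gene, was at 121 to 335 CPM in fibroblasts (0.86, SE 0.19) and 152 to 217 CPM in tendon cells (0.90, SE 0.19). Adm was at 33.6, 64, 16.4 and 144 CPM in fibroblasts (1.5, SE 0.34). Slc16a3 was at 21.5, 32.1, 14.5 and 0.833 CPM in fibroblasts (1.28, SE 0.38) and at 29.4, 33.5, 21.4 and 3.28 CPM in tendon cells (1.87, SE 0.35), lowest in Abcg2-MDS/AML in both. The fibroblast call of Slc16a3 was lost without NHD13Tg (0.67, adjusted p = 0.354) and with thinned cells (0.51, adjusted p = 0.496), and the tendon call with thinned cells (1.03, adjusted p = 0.133).

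Lower in fibroblasts were Epas1, Pfkfb3 (−1.40, SE 0.23), Ddit4 (−1.21, SE 0.30), Slc2a3, Pfkl, P4ha1 (−0.81, SE 0.13) and Pdk1. Ddit4, Slc2a3, Pfkl and Pdk1 lost their calls without NHD13Tg, Slc2a3 and Pfkl also without WT_A1, and Pfkl without Abcg2-MDS/AML. Scaling by totals gave 7 higher and 6 lower in fibroblasts (53.8% higher of those called, against 36.4%), with a shift of all genes of 0.19. Lower in tendon cells were Vegfa at 30 to 56.3 CPM (−1.23, SE 0.23), Pfkfb3 at 7.03 to 19.4 CPM (−0.97, SE 0.23) and Hk2 at 45.5 to 72.8 CPM (−0.95, SE 0.32). Higher in tendon cells, beside Egln3, Egln1, Slc16a3, Pfkp and Ndrg1, were Bnip3 at 68.6, 103, 126 and 306 CPM (0.95, SE 0.25), Ankrd37 (0.91, SE 0.22) and Mxi1 (0.55, SE 0.16). Of these 8, Bnip3, Egln1 and Ndrg1 exceeded free RNA in every tendon sum. The tendon counts fell to 5 higher and 1 lower without WT_A1, and to the same without NHD13Tg. The Pfkfb3, Hk2, Egln1, Egln3 and Mxi1 calls were lost in both, and the Bnip3 call without Control or without Abcg2-MDS/AML. Bnip3l, the sister mitophagy receptor of Bnip3, was called in no type (86.2 to 262 CPM over the 17 sums).

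Closely related genes divided differently between the types. Each share here is of the UMIs of both genes, which 3′ counting takes once per molecule whatever the transcript length, and no share was tested. Epas1 made up 72.3% to 80.6% of Epas1 and Hif1a UMIs in the 4 MSC sums and 4.9% to 23.2% in the others. Slc2a3 made up 64.1% to 84.0% of Slc2a3 and Slc2a1 UMIs in MSCs, but 3.6% and 10.1% in chondrocytes. Hk2 made up 91.3% to 95.4% of both hexokinases in MSCs, including the Abcg2-MDS/AML sum in which its level was low. The Hk2 share was 79.1% to 89.3% in fibroblasts, 58.3% to 85.3% in tendon cells and 65.6% and 84.1% in chondrocytes. In osteoblasts it was 50% to 79.6%, with both hexokinase genes at or below free RNA in all 3 sums. Pfkp made up 83.7% to 91.5% of Pfkp and Pfkl (the liver-type subunit) in fibroblasts, 33.1% to 61.8% in MSCs and 11.1% to 27.3% in osteoblasts. The osteoblast shares came from only 11, 19 and 9 UMIs of both genes, with intervals reaching 61.0%, 45.6% and 48.2%. Both Pfkp and Pfkl were at or below free RNA in these osteoblast sums, and Pfkp also was in all 4 MSC sums. Across the 17 sums, the log2 levels of Vegfa, Slc2a3 and Mxi1 were the most like those of Epas1 among the members (Pearson's r of 0.89, 0.88 and 0.81). The sums share 4 libraries, and the 4 MSC sums set these correlations apart from the rest, so they are a description.

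**Figure D3:**
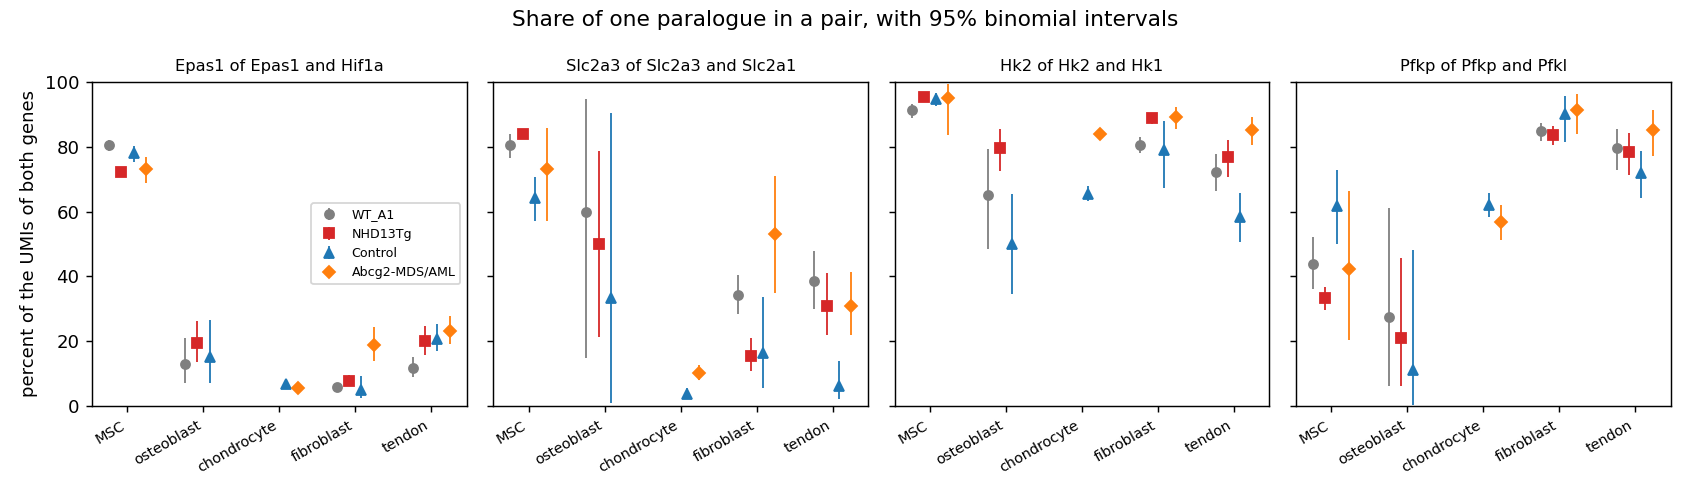
Share in percent of 1 gene in the UMIs of a related pair, by cell type and library, with exact 95% binomial intervals for counting error. The 4 MSC sums hold 72.3% to 80.6% Epas1 and 64.1% to 84.0% Slc2a3, while fibroblasts hold 83.7% to 91.5% Pfkp.

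Other genes of the same pathways, on lists chosen by function, gave a wider view of MSCs. Of 23 further HIF pathway genes tested, 8 were higher and 5 lower in MSCs, led upward by Vegfc (a lymphatic growth factor, 4.66, SE 0.33). Vegfc was at 195, 201, 299 and 55.3 CPM in MSCs and at most 22.7 CPM elsewhere. Of 12 pentose phosphate and glycogen genes, 5 were higher and 4 lower, among them G6pdx (the entry enzyme of the pentose phosphate route) at 24.0 to 30.8 CPM in MSCs and at most 15.1 CPM in other sums (1.79, SE 0.18). Lower were Taldo1, a later enzyme of that route (−1.27, SE 0.15), and Plod2, a collagen lysyl hydroxylase (−1.57, SE 0.21). Other glycolysis and pyruvate genes had 6 higher and 3 lower of 17, and tricarboxylic acid cycle genes none higher and 5 lower of 18. All these shares can be set beside the 26% and 21.4% of all genes called.

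The other types differed from MSCs in these lists. In osteoblasts 8 of 18 tricarboxylic acid cycle genes were higher and 1 lower, beside 17.5% and 20.6% of all genes. Of the 17 other glycolysis and pyruvate genes, 4 were higher and 2 lower in osteoblasts. In chondrocytes 1 of these 17 was higher and 4 were lower, beside 20.4% and 15.8% of all genes. Of the HIF pathway list, Plod2 (1.61, SE 0.21) and Lox (lysyl oxidase, 2.10, SE 0.27) were higher in osteoblasts. These 2 had the lowest adjusted p of the genes higher in osteoblasts on these lists. Eno3 (muscle enolase), Pdk4 and Slc2a4 had larger osteoblast differences (2.75, 2.48 and 2.24). Pygl (liver glycogen phosphorylase) was at 0.796, 1.05 and 3.38 CPM in osteoblasts (−3.51, SE 0.35), from 1, 2 and 2 UMIs. In chondrocytes Pygl was at 35.3 and 29.0 CPM (2.75, SE 0.20), and Stc2, a secreted glycoprotein, at 57.8 and 185 CPM (3.81, SE 0.36). Chondrocytes were low in Lox, at 29.5 and 28.4 CPM (−3.99, SE 0.46), and in Vegfc. Pygl was also higher in fibroblasts (1.49, SE 0.16), together with Pdp1 (1.68, SE 0.21), while Stc2 (−3.25, SE 0.44) and Plod2 (−1.52, SE 0.21) were lower. In tendon cells Ndufa4l2 (a HIF target of the respiratory chain, 1.66, SE 0.32) and Pygl (0.90, SE 0.17) were higher, and G6pdx (−1.0, SE 0.22) and Suclg2 (−0.52, SE 0.17) lower.

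Within the 2 model pairs there is 1 library per group, so no p-value was computed and differences are between libraries, not between genotypes. A member was past the size rule when it was at least 1.5-fold apart, its 95% interval of counting error left out a ratio of 1, and it reached 20 CPM in 1 of the libraries. In the 8 comparisons, members were past the rule 39 times upward and 53 times downward of 205 considered (19% and 25.9%), beside 8.17% and 15.6% of all genes considered in the same comparisons. In 28 of the 39 the model level exceeded free RNA of its library, and in 33 of the 53 the control level did. Ddit4 was higher in the model in 7 of 8 comparisons, Bnip3 in all 7 in which it reached the level, and Adm in 5 of 6. Free RNA moved with them: Ddit4 was at 108 against 50.2 CPM in the free RNA of the NHD13Tg pair and at 218 against 38 CPM in that of the Abcg2 pair. Free Bnip3 was at 93.3 against 64.9 CPM and at 255 against 86.6 CPM, and free Adm at 61.9 against 28.9 CPM and at 25.5 against 5.43 CPM. The part of free RNA in these ratios was not tested.

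In MSCs the NHD13Tg library was higher in 10 of 28 members considered and lower in none, where 4.4% of all genes were higher and 8.02% lower. The members' median log2 ratio was 0.50, against −0.05 for all genes. Bnip3 was at 167 CPM in NHD13Tg and 49.3 CPM in WT_A1 (log2 ratio 1.76, interval 1.52 to 2.02). Ddit4 was at 274 and 128 CPM (1.10, 0.95 to 1.26), Adm at 160 and 83.5 CPM (0.94, 0.74 to 1.14), and Pfkl at 54.9 and 29.2 CPM (0.91, 0.58 to 1.26). Vegfa was at 938 and 531 CPM (0.82, 0.74 to 0.90), and Pgam1 (phosphoglycerate mutase) at 147 and 83.8 CPM (0.81, 0.62 to 1.02). The other 4 were Hif1a, Tpi1, Gapdh and Pfkfb3, and all 10 exceeded free RNA in the NHD13Tg MSCs. Epas1 was nearly level, at 635 and 603 CPM (0.07, −0.00 to 0.15). Blood markers summed to 831 CPM in these NHD13Tg cells and 2059 CPM in those of WT_A1, and their part was not tested.

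In MSCs of the Abcg2 pair members went both ways. Of 27 members, 5 were higher and 5 lower, where 12.8% and 17.5% of all genes were, so the shares are near the background. With TMM scaling between the libraries, which raised all ratios by 0.11, these became 7 and 3. Bnip3 was at 205 CPM in Abcg2-MDS/AML and 34.8 CPM in Control (2.55, 2.08 to 3.04), though below its free RNA level of 255 CPM. Ddit4 was at 514 and 89.7 CPM (2.52, 2.23 to 2.82), Ankrd37 at 49.7 and 23.8 CPM (1.07, 0.30 to 1.81), and Hif1a at 232 and 151 CPM (0.63, 0.30 to 0.94). Hk2 was at 73.7 and 293 CPM (−1.97, −2.49 to −1.52), Vegfa at 214 and 602 CPM (−1.49, −1.78 to −1.22), and Slc2a1 at 20.3 and 43.3 CPM (−1.04, −2.16 to −0.17). Ldha was at 300 and 461 CPM (−0.62, −0.87 to −0.37). Epas1 was again nearly level, at 630 and 535 CPM. These MSCs are the 154 cells low in Cxcl12 and other MSC markers, and the share of that in the ratios was not tested.

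Osteoblasts could be compared in the NHD13Tg pair only, where Hk2 was at 65.8 against 20.7 CPM (1.65, 1.05 to 2.34) and Ndrg1 at 40.5 against 81.2 CPM (−1.0, −1.45 to −0.56). Both levels of both genes were below free RNA, and 2 of 19 members stood past the rule beside 5.13% of genes higher and 6.11% lower. Blood markers summed to 891 CPM in the NHD13Tg osteoblasts and 12.7 CPM in those of WT_A1. They went the other way in fibroblasts (21.1 against 257 CPM) and tendon cells (19.0 against 637 CPM), and their part was not tested. In fibroblasts of this pair 4 members were higher and 1 lower of 25 (1.69% and 3.53% of all genes). Hk2 was at 165 against 83 CPM (0.99, 0.86 to 1.13), and Adm at 64 against 33.6 CPM (0.93, 0.72 to 1.14). In tendon cells 4 were higher and 2 lower of 27 (3.1% and 7.26%), with Ddit4 at 162 against 61.1 CPM (1.40, 1.15 to 1.66). Pgk1, phosphoglycerate kinase 1, was low in NHD13Tg in both types, at 10.6 against 34.7 CPM in fibroblasts (−1.70, −2.09 to −1.34) and 10.8 against 42.5 CPM in tendon cells (−1.96, −2.65 to −1.36). Its free RNA was at 11.7 against 36 CPM, a like ratio. Eno1 was at 127 against 211 CPM in tendon cells (−0.72, −0.93 to −0.53).

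In the Abcg2 pair, lower enzyme levels were common in tendon cells and fibroblasts. Tendon cells had 5 members higher and 17 lower of 28, beside 17.7% and 21.4% of all genes, and a median of −0.89 against −0.02. Of 13 enzymes considered, 10 were lower there and none higher. Ldha was at 211 CPM in Abcg2-MDS/AML against 542 CPM in Control (−1.36, −1.5 to −1.23), Eno1 at 62.8 against 164 CPM (−1.38, −1.63 to −1.14), and Pkm at 138 against 342 CPM (−1.31, −1.48 to −1.14). The 6 lowest by size were Slc16a3 (−2.66), Pfkl (−2.23), P4ha2 (−2.10), Hk1 (−1.5), Eno1 and Ldha. Of these, Pfkl, P4ha2 and Hk1 were at or below free RNA in both libraries. Of the 17 lower members, 10 exceeded free RNA in Control. Ddit4 went the other way, at 402 against 40.4 CPM (3.31, 3.00 to 3.64), as did Adm at 40.9 against 9.29 CPM (2.11, 1.46 to 2.89), Bnip3 at 306 against 126 CPM (1.27, 1.08 to 1.47), Mxi1 and Bnip3l. All 5 exceeded free RNA in the Abcg2-MDS/AML library. Between these tendon sums the tendon list was at 5571 against 14116 CPM, the osteoblast list at 4008 against 12545 CPM and the MSC list at 1232 against 354 CPM, and their part was not tested.

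Fibroblasts gave 5 higher and 14 lower of 24, beside 11.7% and 28.6% of all genes, with a median of −1.02 against −0.26. Of 11 enzymes, 8 were lower and 2 higher. Adm was at 144 against 16.4 CPM (3.09, 2.43 to 3.92), Ddit4 at 145 against 32.9 CPM (2.12, 1.63 to 2.69), and Hk2 at 135 against 51.2 CPM (1.39, 0.97 to 1.84). P4ha2 was at 14.6 against 79.3 CPM (−2.43, −3.06 to −1.86), Slc2a1 at 6.25 against 25.1 CPM (−1.99, −3.03 to −1.04), and Eno1 at 45.8 against 158 CPM (−1.78, −2.14 to −1.42). Ddit4, P4ha2 and Slc2a1 were at or below free RNA in both libraries. Of the 5 higher members, 2 exceeded free RNA in Abcg2-MDS/AML, and of the 14 lower, 7 did in Control. Egln3 had 0 UMIs in Abcg2-MDS/AML against 29 in Control, at least 22.4-fold lower with 3 counts in the library as the floor. Hk2 was thus higher in the model library in fibroblasts of both pairs. Between the Abcg2-pair fibroblasts the MSC list was at 4009 against 1266 CPM, the osteoblast list at 1200 against 3874 CPM and the tendon list at 1793 against 4651 CPM, and their part was not tested. Adm and Hk2 were also called higher in MSCs. In Abcg2-MDS/AML, however, MSCs held them at 59 and 73.7 CPM, against 144 and 135 CPM in fibroblasts.

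Chondrocytes of the Abcg2 pair had 5 higher and 13 lower of 27, beside 7.77% and 32% of all genes, and a median of −0.51 against −0.31. Of 15 enzymes, 6 were lower and 1 higher, and their median of −0.34 was near that of all genes. With TMM scaling, which raised all ratios by 0.38, the split was 7 and 7. Hif1a was at 192 against 337 CPM (−0.81, −0.90 to −0.72), Pfkp at 21.1 against 55.7 CPM (−1.40, −1.65 to −1.16), and P4ha2 at 48.7 against 113 CPM (−1.22, −1.38 to −1.05). Ddit4 was at 85.7 against 33.7 CPM (1.35, 1.15 to 1.55), Bnip3 at 216 against 85.8 CPM (1.33, 1.20 to 1.46), and Bnip3l at 262 against 118 CPM (1.16, 1.05 to 1.27), of which Bnip3l alone exceeded free RNA. Slc2a1 was nearly level (0.07) and Gapdh was at 467 against 461 CPM. The chondrocyte list was at 16307 against 34435 CPM in these sums and the osteoblast list at 651 against 4938 CPM, and their part was not tested. P4ha1 and Ldha were past the rule downward in all 4 cell types of the Abcg2 pair, and in none of the NHD13Tg pair, when scaled by totals. The Control level did not exceed free RNA for P4ha1 in MSCs, nor for either gene in fibroblasts. With TMM factors P4ha1 in MSCs (−0.54) and chondrocytes (−0.53) and Ldha in MSCs (−0.51) and chondrocytes (−0.26) of the Abcg2 pair fell short of 1.5-fold. The difference between the pairs was not tested.

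**Figure D4:**
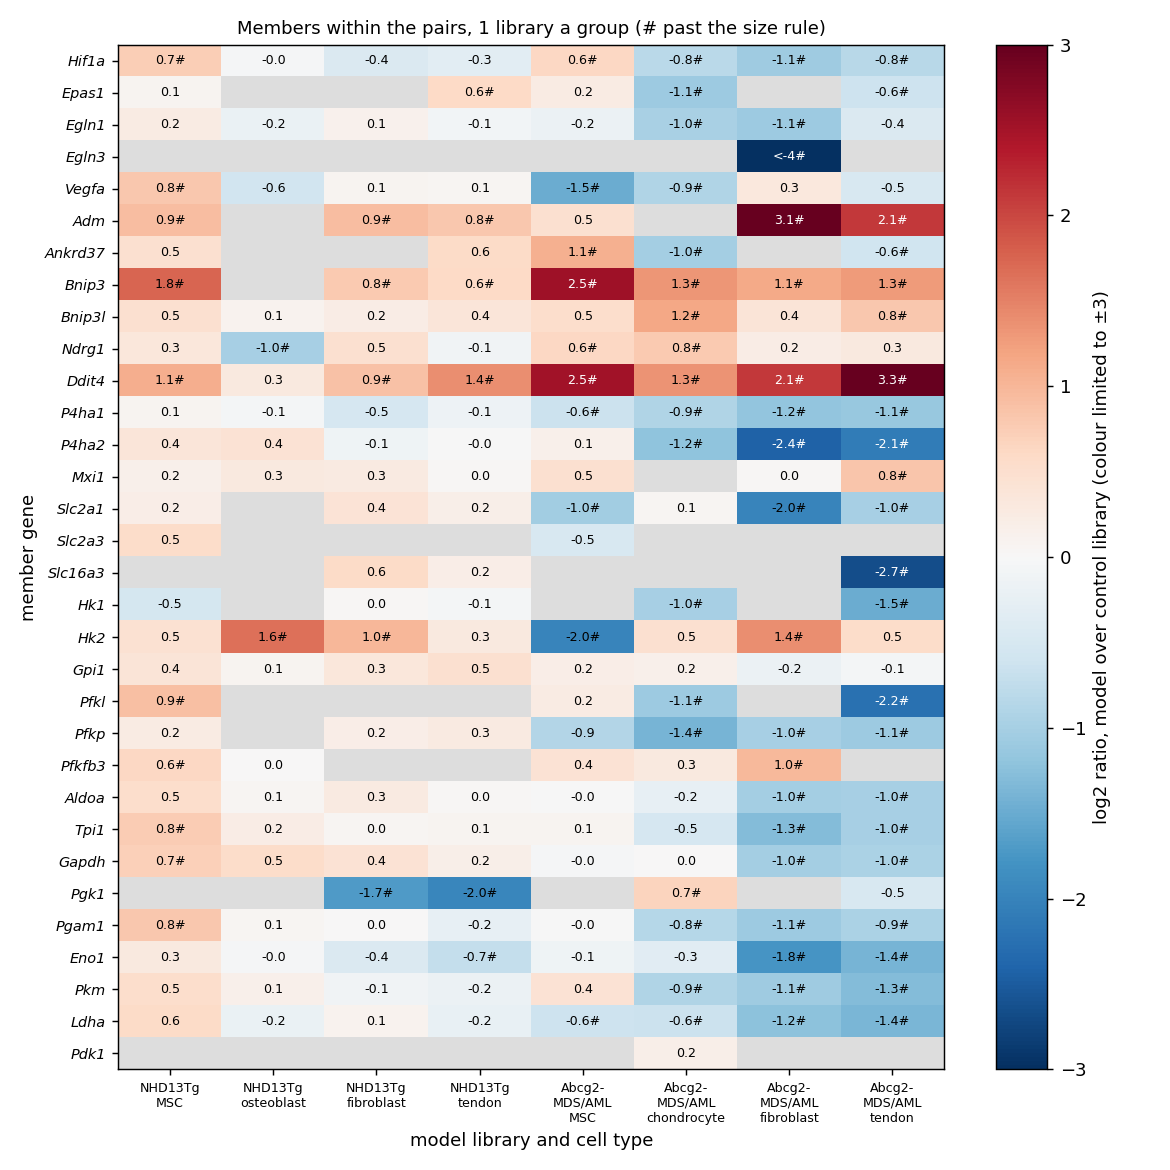
Log2 ratio of model over control library for each member (rows) in each of 8 comparisons (columns), with colour limited to ±3, grey where neither library reached 20 CPM, and a hash where the ratio is past the size rule. Bnip3 and Ddit4 are red in most columns, and the Abcg2-MDS/AML tendon column holds 17 blue entries past the rule against 5 red.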

How the data were processed

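The labels' protocols describe Chromium Next GEM 3′ v3.1 libraries sequenced on a NextSeq 500. Cell Ranger 3.1.0 and Seurat 3.2.3 are named per the submitters' processing notes, and the genome build is not given in the sources used here. The files the authors deposited are matrices of raw UMI counts, with empty droplets kept.

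Barcodes were taken as cells at 2000 UMIs or more, with at least 500 genes and at most 10% mitochondrial UMIs. Types were gated on UMIs per 10000: MSC Adipoq, Lepr and Esm1 at least 10 in sum, osteoblast Bglap and Bglap2 at least 100, chondrocyte Col9a1, Col9a2 and Col9a3 at least 15, fibroblast Dpt, Clec3b and Col14a1 at least 8, tendon Thbs4 and Myoc at least 30. Cells passing several gates, which could be doublets, were left out, and no doublet caller was run. Counts were summed per type and library (at least 30 cells). Type contrasts used edgeR 4.0.16 (R 4.3.3) quasi-likelihood tests with TMM scaling, filterByExpr and the library as a block, on 17 sums with 9 residual degrees of freedom. The 13 gate genes were left out, and p-values were adjusted by Benjamini-Hochberg over 11713 genes, with calls at adjusted p under 0.05. Printed CPM are per 1000000 UMIs of a sum, without TMM factors, whereas log2 differences carry them.

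Libraries of 4 different groups served as replicates of a type, and nothing says how many animals each held, so the p-values measure the spread between these libraries. Pair ratios are log2 ratios of CPM with 0.5 added to each count and exact conditional binomial 95% intervals. Intervals cover counting error only. The library block is the sums' own library: deviations of sums from the same library correlated at 0.0751 to 0.701 over 21 type pairs, 2 of them at or below 0.1. All 34 members are accounted for by role. Values are given for the 3 largest differences per type and direction, for the sensors and factors, and for up to 6 members per pair, type and direction, while other pathway genes are given by count with at most 2 values per direction and type. Members, gates and lists were chosen with earlier results of these data known. The fit was tested on simulated counts. Alternatives were DESeq2 1.42.0, other scalings, filters, gates, thinning, subtraction of free RNA and leaving out each library.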

Additional observations from a re-analysis of the deposited data

Results flagged for a closer look

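Vegfa in MSCs went opposite ways in the 2 pairs: its log2 ratio was 0.82 in NHD13Tg against WT_A1 and −1.49 in Abcg2-MDS/AML against Control. Epas1 in tendon cells did the same on a smaller scale, at 0.59 and −0.63, but all 4 of these tendon levels were below the free RNA of their libraries. With 1 library per group neither difference between the pairs was tested.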

How the results depend on the processing

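Of the 85 calls of members in the 5 type contrasts, none changed direction under any alternative run. Leaving out each library gave 15 to 21 members called in MSCs (19 with all), 10 to 24 in osteoblasts (21), 17 to 25 in chondrocytes (23), 6 to 14 in fibroblasts (11) and 6 to 14 in tendon cells (11). The osteoblast count was 10 without NHD13Tg, the fibroblast count 6 without NHD13Tg, and the tendon count 6 without WT_A1 and 6 without NHD13Tg. Leaving out the replicate block ended 30 of the 85 calls, and the counts were 14 in chondrocytes, 5 in fibroblasts and 5 in tendon cells, and with cells thinned to 2000 UMIs they were 7 in fibroblasts and 7 in tendon cells. Subtracting free RNA ended 3 of the 85 calls, Gapdh in MSCs, Hk2 in tendon cells and Slc2a3 in fibroblasts. The cause was not tested.

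With a threshold of 2-fold, members past the size rule numbered 2 in NHD13Tg MSCs (10 at 1.5-fold), 1 in fibroblasts (5) and 2 in tendon cells (6), and in the Abcg2 pair 6 in MSCs (10), 8 in chondrocytes (18) and 12 in tendon cells (22), since fewer ratios reach the higher threshold. With thinned cells the NHD13Tg counts were 1 in osteoblasts (2) and 3 in tendon cells (6). Of 92 single ratios, 1 reversed: Pfkfb3 in Abcg2 fibroblasts, from 0.98 to −0.16 with thinned cells. The sums with the fewest UMIs, those of the 54 Control osteoblasts and the 154 Abcg2-MDS/AML MSCs, have the highest floors, where 3 counts come to 5.07 and 5.53 CPM.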
